A study of Mus musculus with 10 samples.

Results

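The genes described here are 7 genes of peripheral nerve and of the brown adipocyte's signalling to nerve, Mbp, Pmp22, Sox10, S100b, Ngfr, Th and Clstn3. Their rows were taken by gene symbol from the table of gene counts, 7 of 54347 gene records. Of the 7, 6 had enough counts to be among the 13733 genes tested, and Th did not. RNA was measured in the interscapular depot of brown adipose tissue (iBAT), fat that burns lipid for heat, of 10 mice. The 5 ΔGm15551 mice (replicates 1, 2, 4, 5 and 7) carried a deletion made with CRISPR/Cas9 that includes exon 1 of Gm15551, a gene for a long noncoding RNA (lncRNA). The 5 wild type mice (replicates 2, 3, 5, 6 and 7) are given as litter mates by the series' design text, on the same C57BL/6N background. All 10 were 12 weeks old, ate a chow diet, and spent the last 24 h alone at 4 °C, so that no mouse kept in the warm is among them. The deletion is carried in the germ line and so is not limited to brown fat, and the line had been crossed back to wild type for 2 generations.

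Schwann cells are the glia of peripheral nerve. Sox10 is the transcription factor that maintains their lineage, and myelinating Schwann cells use it to switch on myelin proteins such as Mbp and Pmp22, while non-myelinating Schwann cells wrap thin axons without myelin, among them the sympathetic axons that reach brown fat, and carry the neurotrophin receptor Ngfr. Those axons release noradrenaline in the cold, made from tyrosine by Th, the rate-limiting enzyme, whose RNA lies mostly in nerve cell bodies in ganglia outside the depot. S100b is a calcium-binding protein of Schwann cells that brown adipocytes also make and secrete as a neurotrophic signal, and the Clstn3 locus, named for the synaptic adhesion protein calsyntenin 3, also gives the adipocyte form Clstn3b, a protein of the endoplasmic reticulum that promotes this secretion.

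The start regions of the members that act in nerve (Th) and in adipocyte signalling to it (Clstn3, S100b) are shown because they are the sequences next to which transcription of these genes begins. They come from RefSeq on GRCm38.p6, run from 250 bases before a transcript start to 30 bases from it, and are written on the strand of the gene. Capitals mark the word TGACGTCA, the full cAMP response element, which reads the same on both strands.
Clstn3, outer start: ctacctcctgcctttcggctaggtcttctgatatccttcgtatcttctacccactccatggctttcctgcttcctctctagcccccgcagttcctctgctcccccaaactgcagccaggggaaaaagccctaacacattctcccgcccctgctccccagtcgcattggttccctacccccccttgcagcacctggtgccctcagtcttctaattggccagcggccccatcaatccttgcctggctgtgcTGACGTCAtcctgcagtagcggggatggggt
Clstn3, inner start: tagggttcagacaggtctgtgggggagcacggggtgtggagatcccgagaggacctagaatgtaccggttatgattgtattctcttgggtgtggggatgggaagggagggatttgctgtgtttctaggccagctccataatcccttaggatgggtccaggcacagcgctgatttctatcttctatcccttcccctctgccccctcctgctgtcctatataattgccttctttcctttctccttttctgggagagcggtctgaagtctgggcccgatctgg
Th: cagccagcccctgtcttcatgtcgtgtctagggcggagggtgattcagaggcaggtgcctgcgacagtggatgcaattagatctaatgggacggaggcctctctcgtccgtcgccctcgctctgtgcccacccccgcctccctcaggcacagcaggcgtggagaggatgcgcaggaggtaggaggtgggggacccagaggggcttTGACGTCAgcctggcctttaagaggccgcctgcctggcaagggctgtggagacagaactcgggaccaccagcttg
S100b: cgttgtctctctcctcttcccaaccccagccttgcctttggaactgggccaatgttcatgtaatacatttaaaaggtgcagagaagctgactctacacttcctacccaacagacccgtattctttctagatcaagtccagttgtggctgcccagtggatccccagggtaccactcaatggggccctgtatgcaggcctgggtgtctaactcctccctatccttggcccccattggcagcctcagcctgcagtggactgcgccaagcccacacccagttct
The outer Clstn3 region lies at chr6:124464755-124465034 on the minus strand, and the inner one at chr6:124462715-124462994 on the same strand. The Th region is chr7:142899966-142900245 on the minus strand, and the S100b region is chr10:76253586-76253865 on the plus strand. In Th the word begins 45 bases before the start, and in the outer Clstn3 region it begins 1 base before the start and runs over it. The word was chosen after these regions had been read. From RefSeq, 9 windows of 300 bases (250 before to 50 after a start) were used. They belonged to 5 of the members, Clstn3, Th, S100b, Pmp22 and Ngfr, and none was used for Mbp or Sox10. Of the 9 windows, 2 held the word, as did 1.79% of all 32851 windows. The words ACAAAG and ACAATG, which SOX proteins can bind, were searched on both strands and occurred in 0 of the 9 windows and in 28.6% of all windows. These are matches of letters and not measured binding sites.

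On GRCm38, Clstn3 (minus strand) spans 124430759 to 124464794 on chromosome 6, with 7 annotated transcripts of which 3 are protein coding. The deposited counts sum all transcripts of a gene, so that calsyntenin 3 and Clstn3b cannot be separated in them. S100b spans 76253853 to 76261159 on chromosome 10 with 1 transcript, and it overlaps the protein-coding gene Dip2a on the other strand without a shared exon. Pmp22 spans 63128982 to 63159547 and Ngfr 95568818 to 95587735 on chromosome 11, Sox10 spans 79154908 to 79165240 on chromosome 15, and Th spans 142892752 to 142931128 on chromosome 7. No exon of a member overlapped an exon of another annotated gene.

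The target of the deletion was counted in few reads. Gm15551 had 0 counts in each of the 5 ΔGm15551 mice and 1, 2, 6, 7 and 0 counts in wild type replicates 2, 3, 5, 6 and 7. The groups touched at 0, since wild type replicate 7 also had none. The exact permutation test (two-sided) of the Gm15551 CPM (counts per 1e+06 counts, with library sizes scaled by the trimmed mean method TMM) gave an unadjusted p = 0.0476. Gm15551 was kept among the genes tested with edgeR and was not called there. Library totals ranged from 12593971 to 14438903 counts in ΔGm15551 and from 9680976 to 15771170 in wild type. Across the 13733 genes tested with edgeR's quasi-likelihood test, 0 (0%) had an adjusted p under 0.05 between the genotypes, and 220 (1.60%) had an unadjusted p under 0.05, of which 132 (0.961%) were higher and 88 (0.641%) lower in ΔGm15551. The DESeq2 Wald test and limma-voom also called 0 genes, with 229 and 249 genes under an unadjusted 0.05. Counts on skeletal muscle genes set some libraries apart, with a summed level of 10 muscle genes of 2609.7 CPM in wild type replicate 7, 1563 in ΔGm15551 replicate 4, 721 in ΔGm15551 replicate 1, against 1.06 to 230 CPM in the other 7 mice. The 3 wild type mice with replicate numbers 5, 6 and 7 came from a higher series of mouse numbers that holds no ΔGm15551 mouse, so that the series and the genotype cannot be told apart for them.

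None of the 6 tested members was called between the genotypes (0 of 6, against 0% of all genes tested), and none had an unadjusted p under 0.05 (against 1.60%). The 6 differences, written as log2FC of ΔGm15551 minus wild type, ran from -0.20 for Ngfr to 0.10 for Mbp, with 3 of 6 above 0, against 49.7% of all genes tested. Over all genes tested the median absolute log2FC was 0.09. The CPM of the groups overlapped for all 6, while 44 of the 13733 genes (0.320%) had groups that did not overlap. The 95% interval of the log2FC from limma-voom lay within 1 on either side of 0 for Mbp, Pmp22, S100b, Ngfr and Clstn3 but not for Sox10, and did so for 90.0% of all genes tested. Since these are bulk tissue samples, fewer cells of a type and less RNA per cell cannot be told apart in any of the values.

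**Figure D1:**
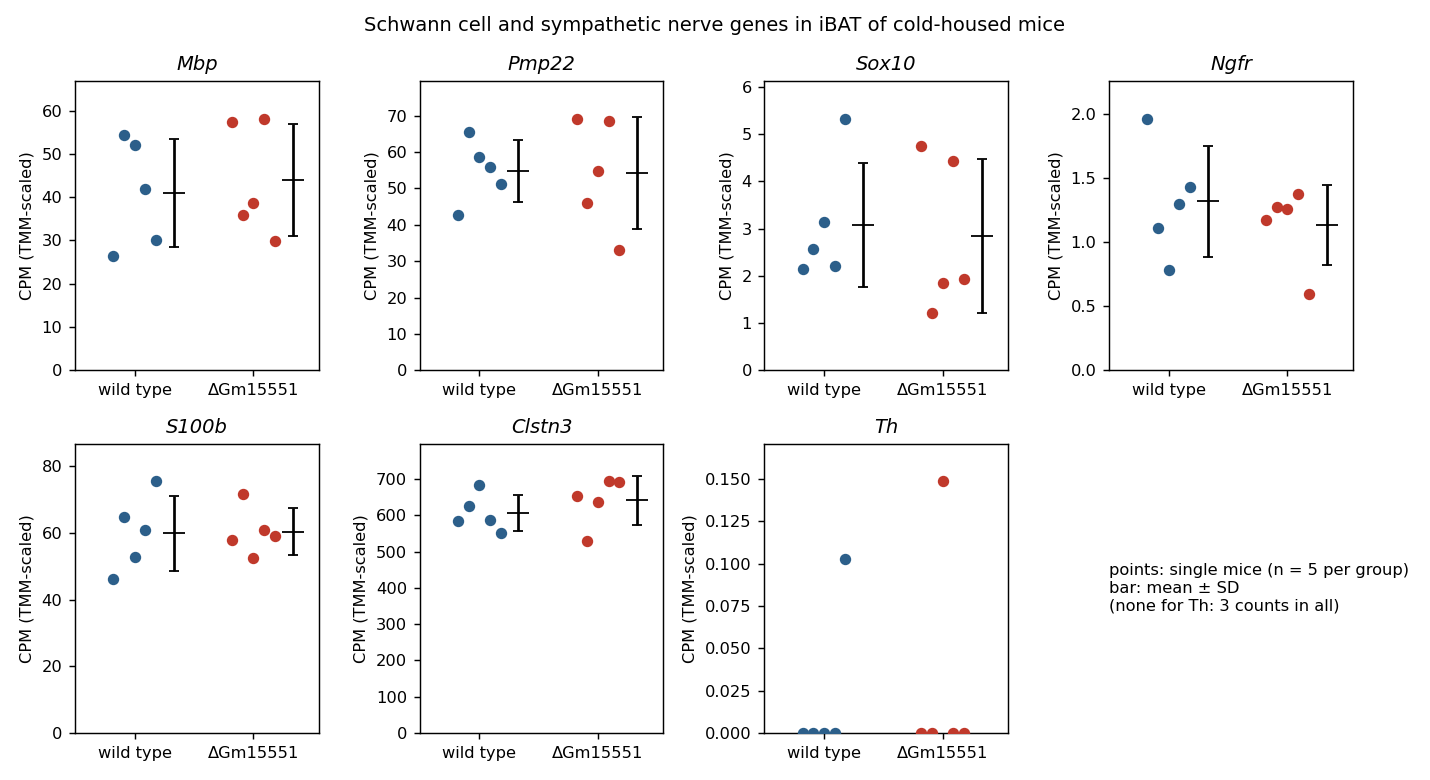
CPM (linear axis from 0, scaled by TMM) of the 7 members in each of the 10 mice, wild type in blue and ΔGm15551 in red, with the mean and SD of each group (n = 5) as a bar, left out for Th, which had 3 counts in all. The groups overlap in every panel, Sox10 has its 3 lowest values in ΔGm15551 mice, and Clstn3 stays between 530 and 694 CPM.

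Mbp, myelin basic protein, which compacts the myelin sheath, was 57.5, 35.9, 38.7, 58.1 and 29.98 CPM in ΔGm15551 replicates 1, 2, 4, 5 and 7. In wild type replicates 2, 3, 5, 6 and 7 it was 26.4, 54.3, 52.1, 41.8 and 30.1 CPM. High and low mice occurred in both genotypes: ΔGm15551 replicates 1 and 5 and wild type replicates 3 and 5 were above 50 CPM, and ΔGm15551 replicate 7 and wild type replicates 2 and 7 were the 3 lowest. Group means were 44.0 ± 12.96 (ΔGm15551) and 41.0 ± 12.6 CPM (wild type; SD, n = 5 each), with a log2FC of 0.10 (SE 0.23, 95% interval -0.41 to 0.63, edgeR adjusted p = 0.9998). Without the 3 muscle-rich libraries the log2FC was -0.08.

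Pmp22, a membrane protein of compact myelin, was 69.2, 45.9, 54.7, 68.5 and 33.2 CPM in the ΔGm15551 mice in the same order of replicates. Its wild type values were 42.7, 65.6, 58.7, 55.9 and 51.1 CPM. The ΔGm15551 mice were the more spread, holding both the highest value, in replicate 1, and the lowest, in replicate 7, with the wild type mice between them. The means were 54.3 ± 15.3 and 54.8 ± 8.57 CPM (SD, n = 5 each), with a log2FC of -0.01 (SE 0.19, interval -0.47 to 0.37, edgeR adjusted p = 0.9998).

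Sox10 was far lower, at 17 to 65 counts per mouse. It reached 4.76, 1.20, 1.86, 4.44 and 1.93 CPM in the ΔGm15551 mice and 2.14, 2.56, 3.14, 2.21 and 5.33 CPM in wild type. Wild type replicate 7 was highest, followed by ΔGm15551 replicates 1 and 5, and the 3 lowest mice were all ΔGm15551. The highest mouse had 4.42 times the CPM of the lowest, the widest spread of the 6 tested members, and the biological coefficient of variation of 0.415 stood at percentile 95.7 of all genes tested. Group means were 2.84 ± 1.63 and 3.08 ± 1.32 CPM (SD, n = 5 each), with a log2FC of -0.11 (SE 0.38, edgeR adjusted p = 0.9998) and an interval of -1.03 to 0.62, so that a level 2-fold lower lies inside the interval at this depth and spread. Of the 3 highest mice, wild type replicate 7 and ΔGm15551 replicate 1 were also muscle-rich, and the log2FC of Sox10 was -0.11 (SE 0.32) with a muscle score as covariate and -0.00099 (SE 0.38) without the 3 muscle-rich libraries.

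Ngfr, the p75 neurotrophin receptor, was counted 8 to 22 times per mouse. Its level was 1.17, 1.28, 1.26, 1.38 and 0.595 CPM in ΔGm15551 and 1.97, 1.11, 0.785, 1.30 and 1.43 CPM in wild type. ΔGm15551 replicate 7 was the lowest of all 10 mice and wild type replicate 2 the highest, while 4 of the ΔGm15551 mice stood close together. The means of 1.14 ± 0.311 and 1.32 ± 0.436 CPM (SD, n = 5 each) gave a log2FC of -0.20 (SE 0.30, interval -0.84 to 0.48, edgeR adjusted p = 0.9998).

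S100b ranged from 52.6 to 71.9 CPM in ΔGm15551 and from 46.2 to 75.5 CPM in wild type. In order of replicates the ΔGm15551 mice had 57.8, 71.9, 52.6, 60.8 and 59.1 CPM, and the wild type mice 46.2, 64.9, 52.7, 60.8 and 75.5 CPM. The wild type range enclosed the ΔGm15551 range, with wild type replicate 2 lowest and wild type replicate 7 highest. The means were 60.5 ± 7.08 and 60.0 ± 11.3 CPM (SD, n = 5 each), and the log2FC was 0.01 (SE 0.14, interval -0.27 to 0.32, edgeR adjusted p = 0.9998).

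Clstn3 was the most abundant member and the least variable, with 5396 to 9580 counts per mouse and a mean CPM above that of 98.7% of the genes tested. It was 652, 530, 637, 694 and 692 CPM in ΔGm15551 and 585, 627, 684, 586 and 553 CPM in wild type. ΔGm15551 replicate 2 and wild type replicate 7 were the lowest, and ΔGm15551 replicates 5 and 7 and wild type replicate 5 stood together at the top. The means were 641 ± 66.8 and 607 ± 50.3 CPM (SD, n = 5 each), with a log2FC of 0.08 (SE 0.12, interval -0.16 to 0.32, edgeR adjusted p = 0.9998), the narrowest interval of the 6.

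Th had 3 counts in all 10 mice together, namely 2 in replicate 4 of ΔGm15551, 1 in replicate 7 of wild type and 0 in the other 8. Both mice with a count were muscle-rich libraries. The limit set by a 0 is 3 counts per library, 0.190 to 0.310 CPM here, and covers counting error only, so that neither genotype was above what a 0 allows and no fold was formed. The exact permutation test of the CPM gave p = 1 (two-sided). When every gene with a count was kept, so that Th could be fitted, its edgeR adjusted p was 0.995.

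Levels of different genes were compared as CPM per kb of annotated exon. On this scale Clstn3 led at 125.6 ± 11.8 CPM per kb (SD over 10 mice), followed by S100b at 40.6 ± 5.98 and Pmp22 at 23.2 ± 4.97. Mbp stood at 5.02 ± 1.43, Sox10 at 0.969 ± 0.461, Ngfr at 0.356 ± 0.107 and Th at 0.0106 CPM per kb. The ranges over mice of neighbours in this order did not overlap down to Sox10, whereas Sox10, from 0.395 to 1.75, and Ngfr, from 0.173 to 0.570 CPM per kb, did overlap. The exon length joins all annotated transcripts, which lowers the value of genes with many of them, such as Mbp with 16. For scale, the calsyntenin Clstn1 was at 8.75 CPM per kb, and the uncoupling protein Ucp1 of brown adipocytes at 5299. Members known mainly from glia and axons were thus below the members that brown adipocytes also express, with Pmp22, which many cell types make at a low level, the highest of the former.

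**Figure D2:**
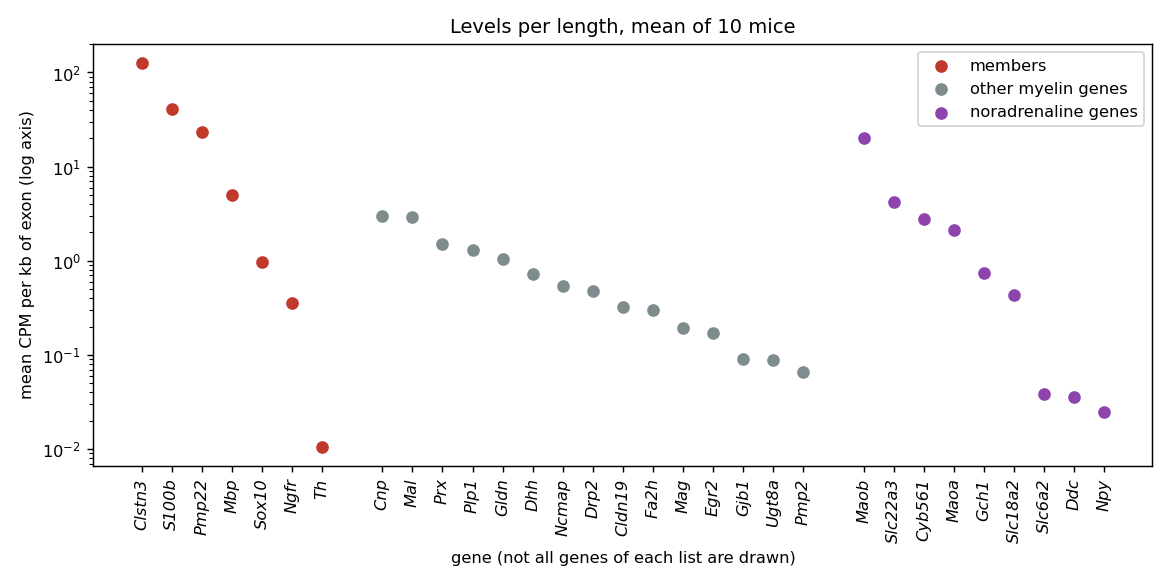
Mean CPM per kb of exon over the 10 mice (log axis) for the 7 members in red, 15 other myelin genes in grey and genes of noradrenaline handling in purple, in falling order within each set and without every gene of the lists. Members span from 125.6 for Clstn3 to 0.0106 for Th, and the noradrenaline gene Maob stands at 20.03 CPM per kb, beside Pmp22 at 23.2.

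The members did not vary together from mouse to mouse as one set. Among the 15 pairs of the 6 tested members, compared as log2 CPM over the 10 mice, Mbp and Pmp22 were the only pair whose correlation passed adjustment over the 15. Their Pearson's r was 0.87 (permutation test, two-sided, p = 0.00064, adjusted p = 0.0096) and their Spearman's rho 0.96 (permutation test, adjusted p = 0.00135). Leaving out ΔGm15551 replicate 5 and wild type replicate 2, the mice farthest from the median of Mbp, left r at 0.84, and r was 0.89 between deviations from the genotype means. In the 7 mice of the lower number series r was 0.92 (exact permutation p = 0.00516, adjusted 0.0774), and in the 7 mice that were not muscle-rich it was 0.91 (exact permutation p = 0.00575, adjusted 0.0863). The myelin pair kept a high r in both sets of 7 mice, while its adjusted p was under 0.05 in neither.

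Sox10 had an r of 0.56 with Pmp22 (permutation test, adjusted p = 0.46) and of 0.40 with Mbp (adjusted p = 0.616). The r with Mbp was 0.73 in the lower number series, 0.68 without the muscle-rich libraries and 0.26 without the 2 mice farthest from the median of Mbp. Within ΔGm15551 and wild type the r of Sox10 was 0.88 and -0.16 with Mbp, and 0.73 and 0.04 with Pmp22. S100b, named as a Schwann cell marker, had an r of 0.04 with Mbp, of 0.07 with Pmp22 and of 0.14 with Sox10, and Clstn3 had an r of -0.46 with S100b and of -0.59 with Ngfr, none of them past adjustment. The r of Clstn3 with 3 members depended on few mice when the 2 mice farthest from the median of the other gene were left out. The r with Ngfr was then -0.25 (without ΔGm15551 replicate 7 and wild type replicate 5). The r with Pmp22 went from 0.20 to 0.82 (without wild type replicate 2 and ΔGm15551 replicate 7; exact permutation p = 0.0145, adjusted 0.109). The r with Sox10 went from 0.30 to 0.72 (without ΔGm15551 replicate 1 and wild type replicate 7; exact permutation p = 0.0428, adjusted 0.214). The highest and lowest S100b mice, wild type replicates 7 and 2, were both among the 3 lowest in Mbp.

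**Figure D3:**
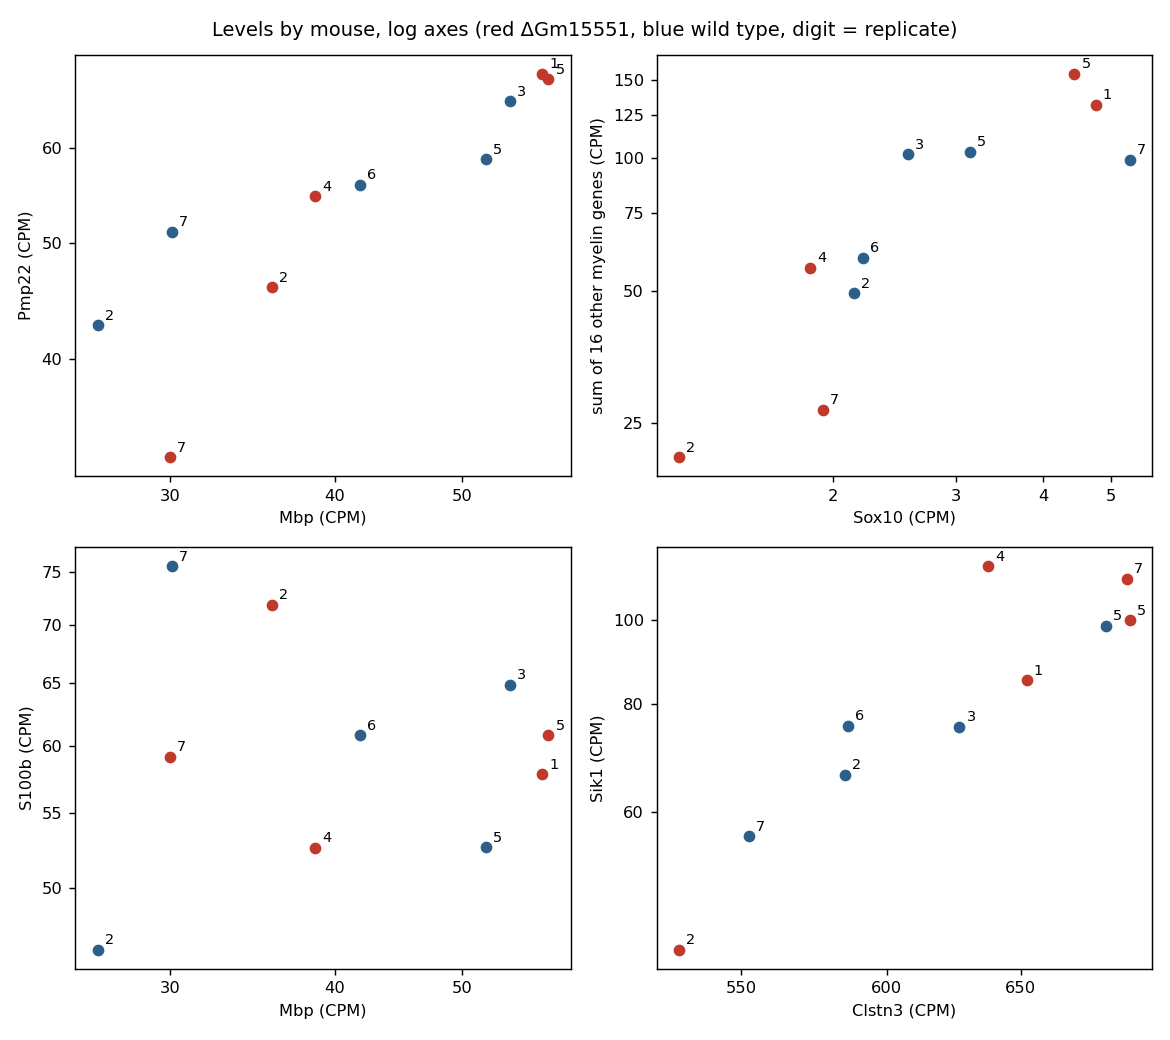
Levels by mouse on log axes in CPM, ΔGm15551 red and wild type blue, with the replicate number beside each point: Mbp against Pmp22 (r = 0.87), Sox10 against the sum of 16 other myelin genes (r = 0.87), Mbp against S100b (r = 0.04) and Clstn3 against Sik1 (r = 0.91). Sik1 was picked as the gene with the highest r with Clstn3 of the 13732 other genes tested. In the first panel r was 0.95 within ΔGm15551 and 0.94 within wild type, and in the second 0.94 and 0.66. No slope was fitted by genotype, and the S100b panel shows no trend.

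Other genes of the nerve were described from lists by role. Of 16 further myelin genes, 11 were tested, 0 were called, and 1, Gldn, had an unadjusted p under 0.05, lower in ΔGm15551 (against 0.641% of all genes). Gldn, gliomedin, which gathers sodium channels at nodes of Ranvier, was 2.78, 0.213, 4.31, 1.76 and 1.56 CPM in ΔGm15551 and 2.05, 15.5, 11.6, 6.62 and 2.25 CPM in wild type. The groups overlapped, with 3 ΔGm15551 mice below every wild type mouse, and the log2FC was -1.85 (SE 0.69, edgeR adjusted p = 0.9998, unadjusted 0.0226). Cnp, an enzyme of myelin membranes, had a log2FC of 0.12 (SE 0.24). The median log2FC of the 11 was 0.12, beside -0.00095 over all genes tested, but its sign was not stable. It was -0.66 with limma-voom and -0.07 with a muscle score as covariate, it ran from -0.41 without ΔGm15551 replicate 5 to 0.28 without ΔGm15551 replicate 2 when single mice were left out, and it was also below 0 without ΔGm15551 replicate 1 (-0.17), wild type replicate 2 (-0.13) or wild type replicate 6 (-0.04). No direction of the list was therefore read from it.

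The summed CPM of the 16 myelin genes followed Sox10. Of 90 correlations between the 6 members and 15 summed lists, 2 passed adjustment by Pearson's r. Sox10 and the myelin sum had an r of 0.87 (permutation test, two-sided, adjusted p = 0.0391) and a rho of 0.83 (adjusted p = 0.102), with r at 0.83 without the 2 mice farthest from the median of the sum, 0.92 in the 7 mice of the lower number series and 0.94 without the muscle-rich libraries. Pmp22 and the same sum had an r of 0.84 (adjusted p = 0.0585) and a rho of 0.90 (adjusted p = 0.0324), Mbp an r of 0.69 (adjusted p = 0.231), and S100b an r of -0.04 (adjusted p = 0.987), all by permutation. Gene by gene, the median r with the 11 tested myelin genes was 0.85 for Sox10, 0.78 for Pmp22, 0.63 for Mbp, 0.31 for Clstn3, 0.15 for Ngfr and -0.02 for S100b, beside medians between -0.02 and 0.02 with all other genes. The sum itself ran from 21.0 CPM in ΔGm15551 replicate 2 to 155 CPM in replicate 5 of the same genotype, and from 49.3 to 103 CPM in wild type. No r of Sox10 with a sum of other cell markers passed adjustment. By permutation test, the r of Sox10 was 0.76 with the endothelial sum (adjusted p = 0.139), 0.68 with the mural sum (0.231), 0.62 with the muscle sum (0.315) and -0.61 with the brown adipocyte sum (0.315). Without the 2 mice farthest from the median of each sum, these r were 0.50, 0.32, 0.79 and -0.21. Among the nerve lists, r was -0.82 with the neurotrophic receptor sum (permutation test, adjusted p = 0.0585), 0.79 with the axon sum (0.0891) and 0.78 with the non-myelinating sum (0.125). With the 2 farthest mice left out in the same way, they were -0.59, 0.47 and 0.65. The r with the non-myelinating sum was 0.94 within ΔGm15551 and -0.04 within wild type. The part of these cell types in the Sox10 pattern was not tested.

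**Figure D4:**
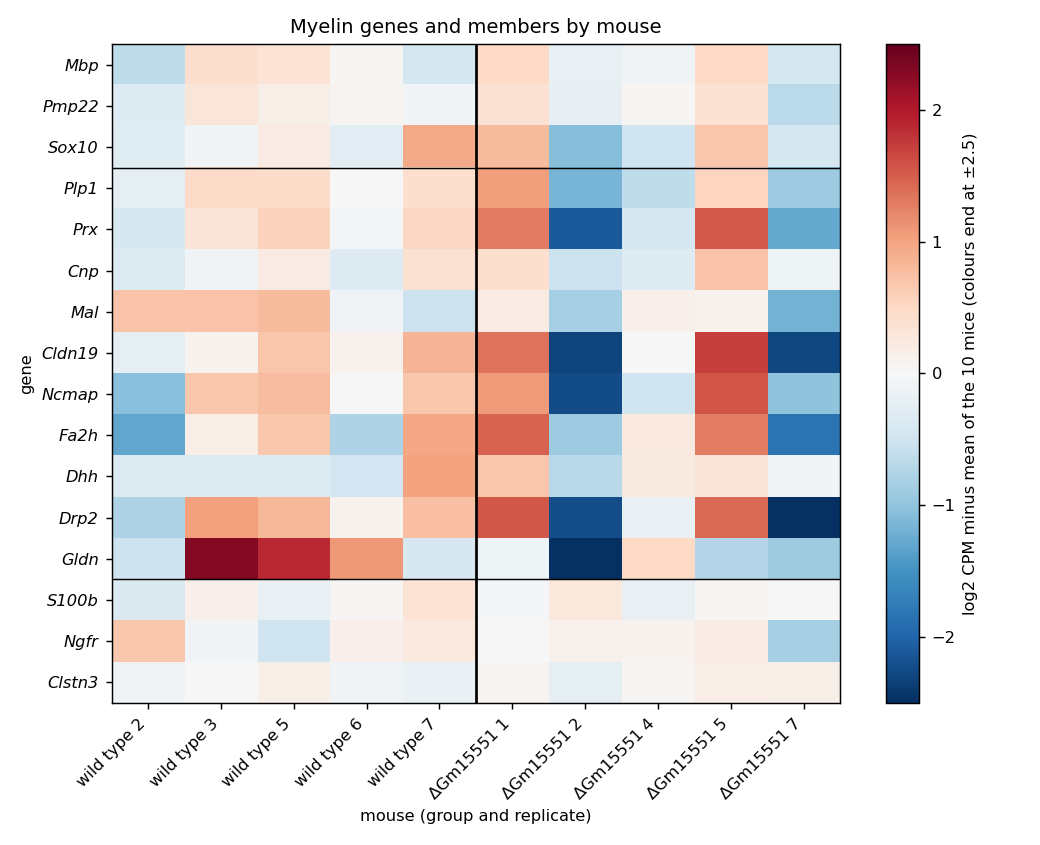
Heat map of log2 CPM minus the mean over the 10 mice for the 6 tested members and 10 tested myelin genes (rows) in each mouse (columns, wild type left, ΔGm15551 right), red above and blue below the mean, with colours ending at 2.5 either way. ΔGm15551 replicates 1 and 5 are red and replicates 2 and 7 blue across most myelin genes, while S100b and Clstn3 stay pale in every mouse.

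Non-myelinating Schwann cell genes were the other glial list. Of 13, 9 were tested, with 0 called and 0 under an unadjusted p of 0.05, and their median log2FC was 0.09. This median turned to -0.16 without ΔGm15551 replicate 5 and to -0.01 without wild type replicate 6, and no direction was read from it. Their summed CPM ran from 25.6 to 42.7 in ΔGm15551 and from 31.9 to 36.3 in wild type, so that the wild type range fell inside the other. Scn7a, a sodium channel of these cells, averaged 10.98 ± 3.49 CPM (ΔGm15551) against 12.4 ± 0.974 CPM (wild type; SD, n = 5 each, log2FC -0.18, SE 0.19). Erbb3, the neuregulin receptor that Schwann cells need to survive, had a log2FC of 0.09 (SE 0.18), and Egfl8, the list's largest difference, one of 0.45 (SE 0.34, edgeR unadjusted p = 0.212).

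Most genes of the axon itself were near 0, and Stmn2 was the exception. Of 16 axon and sympathetic neuron genes, only Stmn2, a tubulin-binding protein of growing axons, passed the filter, with 55 to 125 counts per mouse. Stmn2 was 9.15, 3.90, 4.97, 4.74 and 6.10 CPM in ΔGm15551 and 6.16, 6.32, 4.57, 3.96 and 9.63 CPM in wild type. The groups overlapped, with the muscle-rich wild type replicate 7 and ΔGm15551 replicate 1 highest. Its log2FC was -0.08 (SE 0.27), and the summed CPM of the 16 was 5.10 to 11.1 in ΔGm15551 and 7.08 to 12.3 in wild type. Syt1, Nefl and Hand2 had no count in any mouse, nor did Dbh, which turns dopamine into noradrenaline, genes named for their 0 after their values were seen. Of 11 noradrenaline genes, 7 were tested, with 0 called and a median log2FC of -0.08 (0.01 without ΔGm15551 replicate 1). Maob, an abundant enzyme that breaks monoamines down and is not confined to nerve, had a log2FC of 0.01 (SE 0.24). Slc18a2, the vesicular monoamine transporter, was 2.34, 2.20, 2.23, 1.45 and 2.38 CPM in ΔGm15551 and 2.59, 2.22, 2.498, 2.79 and 2.05 CPM in wild type (log2FC -0.20, SE 0.20). Th and Dbh, which define noradrenaline-making axons, were thus at or near 0, and Stmn2 and Slc18a2 were counted in every mouse. In the axon list 11 of 16 genes were at 0 in at least 1 mouse, and Stmn2 was not the only one counted in all. In the noradrenaline list 4 of 11 were at 0 in at least 1 mouse.

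Ligands that tissues send to nerve were counted very unequally, with 7 of 15 under the filter and 5 at 0 in at least 1 mouse. Of the 15 neurotrophic and axon guidance ligands, 8 were tested, 0 were called and 1, Slit3, had an unadjusted p under 0.05, higher in ΔGm15551 (against 0.961% of all genes). Slit3, a secreted ligand of the Robo receptors that steers axons, was 25.9, 26.7, 26.1, 30.4 and 21.0 CPM in ΔGm15551 and 18.7, 19.6, 22.4, 21.8 and 16.6 CPM in wild type. The groups overlapped in ΔGm15551 replicate 7 alone, the other 4 lying above every wild type mouse, and the log2FC was 0.39 (SE 0.12, edgeR adjusted p = 0.9998, unadjusted 0.00677). Vegfa, the vascular growth factor, and Nrg4, a neuregulin secreted by brown fat, were the most abundant by CPM and had log2FC of 0.14 (SE 0.15) and 0.18 (SE 0.17), with a list median of 0.16. Among 12 receptors, 9 were tested, with 0 called and 0 under an unadjusted 0.05. Sort1, the sorting receptor that pairs with Ngfr, had a log2FC of 0.09 (SE 0.22), Nrp1, the semaphorin and VEGF receptor, one of -0.07 (SE 0.11), and Ntrk3, the receptor for neurotrophin 3, one of 0.48 (SE 0.40, edgeR unadjusted p = 0.262). The value of Ntrk3 rested on ΔGm15551 replicate 7, at 56.2 CPM against 11.4 to 22.6 CPM in the other 9 mice, and without it the log2FC was -0.10 (SE 0.23).

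Relatives of S100b and Clstn3 made the last list, of which 8 of 9 were tested, 0 were called and 0 were under an unadjusted p of 0.05, with a median log2FC of 0.01. This median had no stable sign, at -0.21 in the 6 mice with and without the replicate block and between -0.08 and 0.12 when single mice were left out. S100a1 and S100a13, the most abundant per kb of the list at 332 and 171 CPM per kb, had log2FC of -0.02 (SE 0.14) and -0.16 (SE 0.18), and S100a6 had the largest difference at -0.34 (SE 0.28). Sox10 passed adjustment with the sum of this list as well (r = 0.95, permutation test, adjusted p = 0.0045, rho = 0.92 with adjusted p = 0.0324, r = 0.89 without the 2 mice farthest from the median of the sum, r = 0.92 without the muscle-rich libraries). S100a1 gave 48.9% of the mean sum and S100a13 26.0%. S100a1 was 273, 191, 196, 271 and 210.5 CPM in ΔGm15551 and 221, 212, 234, 217 and 277 CPM in wild type, highest in the same 3 mice as Sox10.

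**Figure D5:**
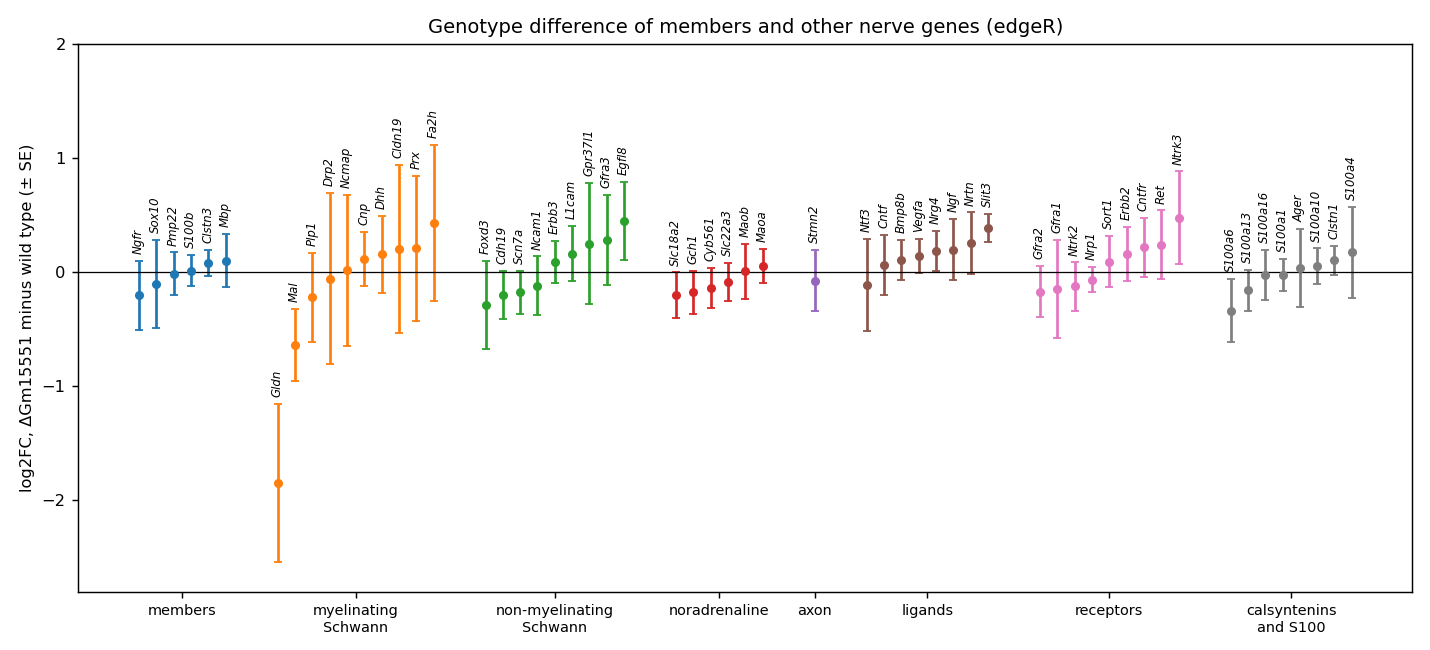
log2FC of ΔGm15551 minus wild type from edgeR with its SE for each tested member and tested genes of 7 lists of nerve genes, ordered within a list. Members lie between -0.20 and 0.10, and Gldn at -1.85 is the farthest gene from 0, and no gene shown had an adjusted p under 0.05.

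The genes whose log2 CPM was most like that of each member over the 10 mice were ranked by Pearson's r among the 13732 other genes tested, as a description of these mice. For Mbp they were B230206H07Rik (0.88), Pmp22 (0.87) and Lrch3 (0.86), and for Pmp22 the second was Smoc2 (0.92), the others not being reported. Sox10 was closest to 1110038B12Rik (0.97), S100a1 (0.97) and Emp2 (0.96), the last a relative of Pmp22 by sequence family. S100b was closest to Znrd1as (0.96), Rasal3 (0.92) and Zfp30 (0.88), and Ngfr to the collagen genes Col6a3 (0.89) and Col5a1 (0.88) and to Pygo1 (0.86). Clstn3 was closest to Sik1 (0.91), Mad1l1 (0.89) and Ptprf (0.88), and no gene other than Pmp22 in these lists was a member. Sik1, a salt-inducible kinase, was 85.1, 41.5, 115, 99.9 and 112 CPM in ΔGm15551 and 66.2, 75.3, 98.6, 75.5 and 56.2 CPM in wild type, and its lowest mice, ΔGm15551 replicate 2 and wild type replicate 7, were also the lowest in Clstn3. Since Sik1 was picked for the highest r with Clstn3 of 13732 genes, this likeness follows from the choice and is no separate result.

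Markers of other cells that the dissected depot could hold were summed for comparison. All 10 brown adipocyte markers were tested with a median log2FC of 0.03, and their sum ran from 25099.5 to 29795 CPM in ΔGm15551 and from 25138 to 27402 CPM in wild type. The 10 muscle markers had a median log2FC of -0.27, which ran from -1.64 without ΔGm15551 replicate 4 to 2.58 without wild type replicate 7, and 7 of them, Acta1, Ckm, Myh4, Tnnt3, Tnni2, Actn3 and Pvalb, were at 0 in at least 1 mouse. Endothelial markers summed to 794 to 1363 CPM in ΔGm15551 and 742 to 1264 CPM in wild type, with a median log2FC of 0.11. Of the 6 endothelial markers 6 had a log2FC above 0, and of the 5 tested macrophage markers 0, beside 49.7% of all genes tested. Without ΔGm15551 replicate 1 the endothelial count was 3, and in the 6 mice with the replicate block it was 1. The macrophage count was 2 of 5 without wild type replicate 2, 2 of 6 without ΔGm15551 replicate 4 or 7, and 1 of 5 with limma-voom and without ΔGm15551 replicate 5 or wild type replicate 7. Mural, fibroblast and macrophage sums overlapped between the genotypes, with median log2FC of -0.03, 0.02 and -0.16. Single mice moved these medians, which ran from -0.27 (without ΔGm15551 replicate 5) to 0.02 (without ΔGm15551 replicate 2) for mural, from -0.16 (without ΔGm15551 replicate 1) to 0.23 (without wild type replicate 2) for fibroblast and from -0.32 (without ΔGm15551 replicate 1) to -0.04 (without wild type replicate 2) for macrophage markers. Of these lists only the fibroblast gene Pi16 had an unadjusted p under 0.05 (log2FC 0.81, SE 0.28, edgeR adjusted p = 0.9998, unadjusted 0.0120). Pi16 was at 19.0 CPM in ΔGm15551 replicate 7 and at 3.76 to 9.21 CPM in the other 9 mice, and without that mouse its log2FC was 0.46 (SE 0.19, edgeR unadjusted p = 0.0366). Lymphocyte markers stayed at 1.25 to 3.81 CPM in sum, with Cd3g at 0 in at least 1 mouse. Melanocytes also express Sox10 and S100b, and of their 6 markers Tyrp1 had no count, Tyr and Mlana were at 0 in at least 1 mouse, and the sum was 4.51 to 6.73 CPM. Most of that sum was Mitf, a transcription factor that other cell types also express (named after its values were seen), at a mean of 4.51 CPM, while none of the other 5 markers averaged above 0.389 CPM.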

How the data were processed

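Poly A RNA of iBAT from 10 mice was sequenced in paired-end reads. Per the labels and methods, reads were filtered with cutadapt and quantified with salmon against GENCODE M22 on GRCm38 (or M22 joined with RNAcentral), and DESeq2 is named among the tools. Versions, and whether strand was used, are not given in the sources used here. The values deposited by the authors were estimated counts (expected counts) per gene as whole numbers, with 1 column per mouse and no scaling.

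The tests used edgeR 4.0.16 in R 4.3.3, with filterByExpr (minimum count 10, minimum total 15, Gm15551 kept), TMM, a robust quasi-likelihood fit with genotype as its only term, and Benjamini-Hochberg over 13733 genes at 0.05. The pipeline was tested on simulated data. Intervals came from limma-voom (limma 3.58.1), and DESeq2 1.42.0 was an alternative. p-values measure the spread between these mice. No 2 libraries of a group agreed within sampling noise (smallest chi-square per degree of freedom 12.6). log2 CPM used a prior count of 2, and summed lists were correlated as log2 of the summed CPM plus 1. Correlations used 100000 permutations over 10 mice and exact permutations over 7 or 8. Exon lengths came from GENCODE M21 and promoter windows from RefSeq, and no window was used for Sox10 or Mbp.

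Named were Gm15551, the 7 members, the 3 genes most like each tested member and, per nerve list, the 2 tested genes with the highest CPM, the gene with the largest absolute log2FC and genes at an unadjusted p under 0.05, with, from other cell types, the last kind and markers at 0 in a mouse. The members, lists and rules were chosen with earlier results of these data known. Alternatives were other scaling and filters, other tests, a muscle score covariate, a replicate block, and leaving out mice. The setting without the 3 libraries with most muscle RNA, correlations in the lower number series and leaving out mice for single list genes were chosen after seeing the data. Some genes that the naming rule picks are not reported here, and the counts and sums of lists still include them.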

Additional observations from a re-analysis of the deposited data

Results flagged for a closer look

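Within each genotype, the highest or lowest of the 5 mice was compared with the others by the ratio of its gap to the whole range, over 44 groups of values (members and summed lists). For independent groups of normal values, chance puts about 1 group in 20 past the critical value of 0.71, or 2.2 of 44, and 8 were past it. The groups here share mice and were compared as CPM without logs, so that this rate is a rough guide only. The 2 groups of Th are past it by construction, with 1 mouse above 0 in each, and without them 6 of 42 were past it, where the same rate gives 2.1. Ngfr in ΔGm15551 replicate 7 was 0.595 CPM, with the other 4 mice at 1.17 to 1.38. Th stood out wherever it had any count, at 0.148 CPM in ΔGm15551 replicate 4 (2 counts) and 0.102 CPM in wild type replicate 7 (1 count), with the others at 0. Wild type replicate 7 was also apart in the axon list (12.3 CPM in sum, others 7.08 to 8.12), in the calsyntenin and S100 list (609 CPM, others 432 to 463) and in skeletal muscle (2609.7 CPM, others 1.36 to 230). The fibroblast list in wild type replicate 2 summed to 410.0 CPM (others 184 to 248), and the neurotrophic ligands in ΔGm15551 replicate 7 to 783 CPM (others 534 to 573).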

How the results depend on the processing

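Under all 22 alternatives to the test across genes, 0 genes and 0 members were called at an adjusted p under 0.05. Of the 6 members, Mbp, Pmp22, Sox10 and S100b changed direction under some alternatives, and Ngfr and Clstn3 did not. The log2FC of Pmp22 was 0.0085 with library totals alone, and it was 0.0062, with Sox10 at 0.27, once the 3 mice of the higher number series, all wild type, were left out. Without the 3 libraries with most muscle RNA, Mbp was at -0.081, and 0 pairs of members passed adjustment in place of 1 there and, equally, without the 3 wild type mice, with r at 0.91 and 0.92 for Mbp and Pmp22 over 7 mice each. Leaving out each mouse in turn gave ranges of log2FC of -0.022 to 0.22 for Mbp, -0.12 to 0.12 for Pmp22, -0.37 to 0.17 for Sox10, -0.069 to 0.11 for S100b, -0.35 to -0.02 for Ngfr and 0.05 to 0.14 for Clstn3, and -0.10 to 0.073 for the median of the receptor list. The median of the myelin list ran from -0.41 to 0.28, and was -0.66 with limma-voom, -0.07 with the muscle score covariate and 0.35 without the 3 wild type mice. The receptor median was -0.058 with no filter and -0.031 without the 3 wild type mice, where 2 axon genes were tested in place of 1 and their median was 0.39. The median of the non-myelinating list ran from -0.16 to 0.13 and that of the S100 and calsyntenin list from -0.078 to 0.12. Of 53 other tested nerve list genes, 28 changed direction when some mouse was left out. Ntrk3 ran from -0.097 (without ΔGm15551 replicate 7) to 0.65. The causes of these shifts were not tested.

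Without the 2 mice farthest from the median, r turned to -0.44 for Mbp and S100b, 0.041 for Mbp and Ngfr, -0.45 for Pmp22 and S100b, -0.20 for Pmp22 and Ngfr, -0.24 for Sox10 and S100b (-0.33 without the muscle-rich libraries and -0.15 without the 3 wild type mice), -0.021 for Sox10 and Ngfr and 0.31 for S100b and Ngfr.

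The replicate numbers 2, 5 and 7 occur in both genotypes. Deviations from the group means of mice with the same number had correlations of -0.07, 0.05 and -0.39 over genes. Mice with the same number were thus not alike by this measure. Pairs with unlike numbers were not compared, so whether the number marks a pair is not settled. A replicate block in these 6 mice called 0 genes, with 398 under an unadjusted p of 0.05 against 554 in the same mice with no block and 220 in all 10, and the log2FC of the members were then 0.20 for Mbp, -0.10 for Pmp22, -0.56 for Sox10, 0.16 for S100b, -0.34 for Ngfr and 0.07 for Clstn3. List medians moved to -0.74 (myelin), -0.084 (non-myelinating), -0.21 (S100 and calsyntenins), 0.070 (noradrenaline), 0.024 (ligands) and -0.069 (receptors) with the block, and to -0.29 (myelin), 0.0022 (non-myelinating), -0.21 (S100 and calsyntenins), 0.086 (noradrenaline) and -0.00035 (ligands) in the 6 mice with no block.

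Genes with few counts are limited by depth, Sox10, Ngfr and Th among the members. The share of genes under an unadjusted p of 0.05, 1.60% in the reported fit, was 2.80% with no filter (869 of 30984 genes), 3.04% without ΔGm15551 replicate 1, 2.91% without wild type replicate 7, 4.02% in the 6 mice with no block and 4.03% without the muscle-rich libraries (561 genes).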
